A study of Mus musculus with 51 samples.

Results

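The genes described here are 34 genes of glucose uptake, glycolysis, lactate transport, the pyruvate dehydrogenase step and glycogen turnover, chosen by symbol, among 24421 genes counted in every library. RNA was measured in the medial prefrontal cortex of 17 adult male C57BL/6J mice. The 8 control mice sat in air chambers and were injected with saline and pyrazole (1 mmol/kg), and the 9 CIE (chronic intermittent ethanol) mice were injected with ethanol and the same dose of pyrazole and then breathed ethanol vapor, 16 h a day in each of 4 weekly cycles. Pyrazole, which inhibits alcohol dehydrogenase and so slows ethanol clearance, was therefore given to every mouse, and no group without it was compared. Each mouse gave 3 libraries: total homogenate, taken from the tissue suspension before it was dissociated; astrocytes, captured with beads against the surface antigen ACSA2 after enzymatic dissociation and myelin removal; and microglia, captured with CD11b beads from the cells that the ACSA2 beads left behind.

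Glucose enters brain cells through facilitative transporters, is trapped by hexokinase and is committed to glycolysis by phosphofructokinase, which is activated by the fructose bisphosphate that PFKFB enzymes make and break down. Most steps of the pathway are encoded by small gene families whose members are used by different cells: neurons are known for the transporter GLUT3 and the enolase Eno2, and astrocytes for the aldolase Aldoc and for most of the glycogen of the brain. Lactate leaves and enters cells through monocarboxylate transporters, and pyruvate enters mitochondrial metabolism through pyruvate dehydrogenase, which the PDK kinases switch off by phosphorylation.

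The libraries held between 571878 and 15594154 counts assigned to genes, with medians of 5418944 in astrocytes, 2078096 in microglia and 8382733 in homogenate, so values in microglia rest on the fewest reads. The 34 genes took between 0.293% and 1.04% of these counts. Levels below are CPM, counts scaled to a common library total. Astrocyte markers summed to a median of 17779 CPM of assigned counts in control astrocytes, against 6719 in control homogenate and 401 in control microglia, and microglia markers to 25609 CPM in control microglia against 3927 in control astrocytes. The control astrocyte libraries also held oligodendrocyte markers at a median of 21841 CPM, against 2191 in homogenate. Immediate early genes summed to a median of 27302 CPM in control microglia and 6763 in control astrocytes against 658 in homogenate. The part of these other cells and of dissociation in the levels below was not tested. In bulk RNA, fewer cells of a type and less RNA per cell cannot be told apart.

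The promoters of 4 members with responses described below are printed here beside the values. Each is the 250 bases before the start of the RefSeq gene model on GRCm38.p6. The GENCODE gene spans given below start elsewhere. The Pfkl window lies wholly inside its span, 77986947 to 78010083, so it need not lie before every start of the gene. The windows of Pfkp, Pygm and Pygb overlap their spans in part. Capitals mark ACGTG on either strand, a form of the core of the hypoxia response element, to which hypoxia-inducible factors bind. Other forms of this core were not marked or counted.
Pfkl, chr10:78009808-78010057, minus strand: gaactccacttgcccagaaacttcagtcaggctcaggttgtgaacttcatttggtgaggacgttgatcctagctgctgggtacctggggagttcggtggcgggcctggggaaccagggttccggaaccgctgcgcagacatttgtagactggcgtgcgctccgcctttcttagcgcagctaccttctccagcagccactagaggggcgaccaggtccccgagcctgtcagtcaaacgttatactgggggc
Pfkp, chr13:6648772-6649021, minus strand: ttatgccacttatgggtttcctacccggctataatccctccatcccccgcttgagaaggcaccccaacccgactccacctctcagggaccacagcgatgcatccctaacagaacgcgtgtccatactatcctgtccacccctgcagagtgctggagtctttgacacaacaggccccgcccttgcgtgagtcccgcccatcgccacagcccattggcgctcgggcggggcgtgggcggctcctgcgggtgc
Pygm, chr19:6384158-6384407, plus strand: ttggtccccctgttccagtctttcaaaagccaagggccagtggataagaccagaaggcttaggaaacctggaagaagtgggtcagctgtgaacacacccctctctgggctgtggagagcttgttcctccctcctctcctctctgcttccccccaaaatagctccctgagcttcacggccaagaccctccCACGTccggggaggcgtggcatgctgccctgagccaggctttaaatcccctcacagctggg
Pygb, chr2:150786546-150786795, plus strand: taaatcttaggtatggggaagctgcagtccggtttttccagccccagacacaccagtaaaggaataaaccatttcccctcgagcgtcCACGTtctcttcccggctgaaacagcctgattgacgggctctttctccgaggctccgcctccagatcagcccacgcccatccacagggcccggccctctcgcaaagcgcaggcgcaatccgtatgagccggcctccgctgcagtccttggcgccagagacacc
The printed windows of the glycogen phosphorylases each held these letters, and those of Pfkl and Pfkp did not. Of 51 promoter entries of the members 21 held them (41.2%), where 16.6% of the 32851 mouse promoters did. A match is a description of the sequence and not a binding site. Slc2a3 and Slc16a7 had no entry.

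The level of each gene in the 3 preparations of control mice was compared to show which isoforms each preparation held. Of the 33 members with enough counts, 19 were highest in homogenate, 7 in astrocytes and 7 in microglia. Of these, 14, 6 and 7 differed from the preparation with the next highest level at an adjusted p under 0.05. This order was not counted over all genes. Against homogenate, 11 members were higher and 18 lower in astrocytes, where over all 14379 genes tested 36.2% were higher and 40.8% lower, and 9 were higher and 22 lower in microglia, where over all genes 37.5% were higher and 46.1% lower. Astrocytes against microglia gave 18 members higher and 10 lower, beside 34.1% and 35.7% of all genes (edgeR's quasi-likelihood test over all 51 libraries, Benjamini-Hochberg adjusted over all genes). The median log2 difference of the members was -0.49 for astrocytes against homogenate, -1.37 for microglia against homogenate and 0.64 for astrocytes against microglia, where the median of all genes was -0.06, -0.17 and -0.01. The remaining member, Pfkfb1, a PFKFB isoform of liver and muscle, was too low to be tested in any preparation, with a mean of 0.819 CPM in control homogenate.

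**Figure D1:**
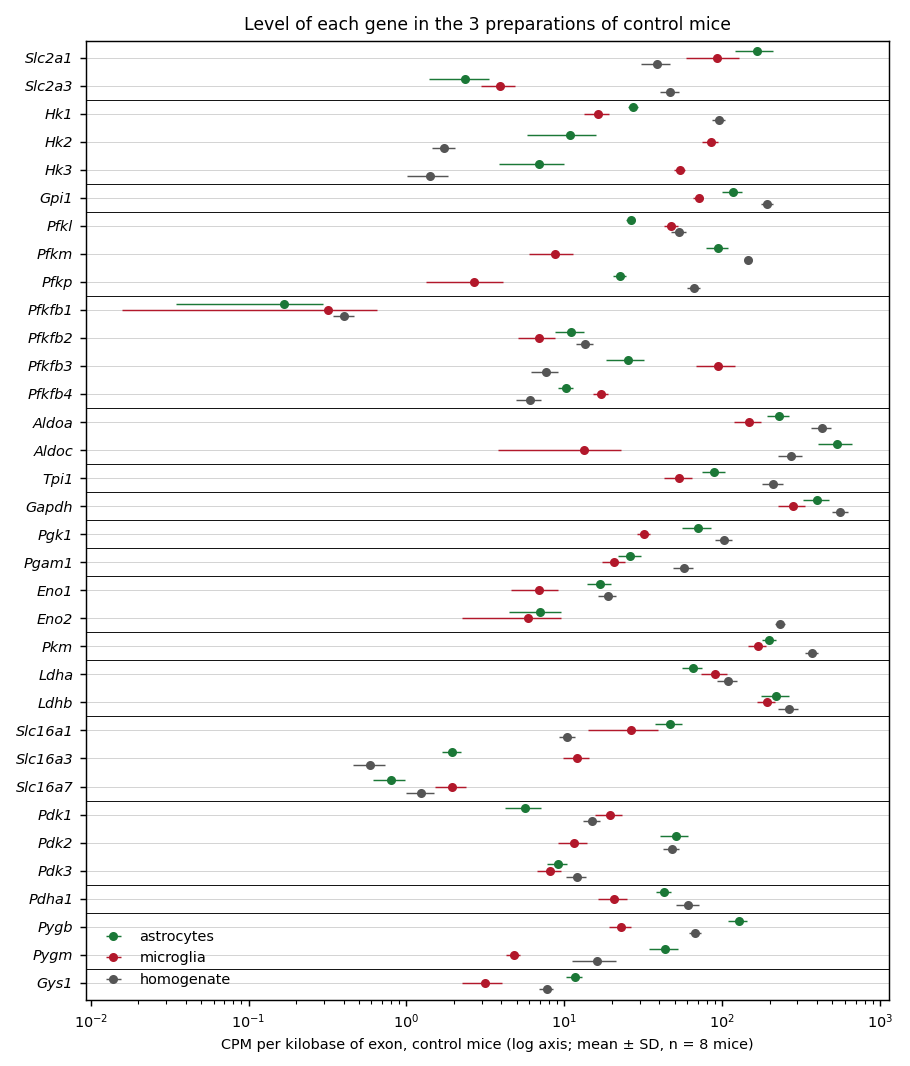
Mean level of the 34 genes in control mice, in CPM per kilobase of exon on a log axis, by preparation and gene family, with bars for the SD over 8 mice. Slc2a1 and the glycogen genes Pygb, Pygm and Gys1 were highest in astrocytes, Hk2, Hk3, Pfkfb3 and Slc16a3 in microglia, and Slc2a3, Hk1, Pfkp and Eno2 in homogenate.

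Transporters of glucose split by preparation. Slc2a1, which encodes GLUT1, the transporter of glia and of the blood-brain barrier, had a level per length of 166 ± 44.2 CPM per kilobase of exon in control astrocytes, 93.2 ± 33.9 in microglia and 38.8 ± 8.04 in homogenate (mean ± SD, n = 8 in each), and the log2 difference of astrocytes from homogenate was 2.09 ± 0.21 (SE, edgeR adjusted p = 3.73e-13). Slc2a3, which encodes GLUT3, had 46.7 ± 6.36 CPM per kilobase in homogenate, 3.92 ± 0.953 in microglia and 2.36 ± 0.9601 in astrocytes. Its log2 difference from homogenate was -4.34 ± 0.21 in astrocytes and -3.58 ± 0.22 in microglia, and astrocytes differed from microglia by -0.76 ± 0.24 (edgeR adjusted p = 0.00437). Slc2a1 made up 98.5% ± 0.584 of the summed level per length of the pair in control astrocytes, 95.4% ± 2.21 in microglia and 45.2% ± 7.11 in homogenate. Endothelial markers followed the order of Slc2a1, with summed medians of 1908 CPM of assigned counts in control astrocytes (range 1259 to 2885), 931 in microglia (range 276 to 2187) and 456 in homogenate (range 343 to 613). All 10 were higher than in homogenate in astrocytes, with a median log2 difference of 1.85, and in microglia, with 1.29. The astrocyte level was 178% of the microglia level for Slc2a1 and 116% to 173% for these markers, and their part in the level of Slc2a1 was not tested.

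Hexokinases, which trap glucose as glucose 6-phosphate, differed in leading isoform. Hk1, the widely used brain hexokinase, was 96.8% ± 0.698 of the family's level per length in homogenate and 61.99% ± 12.7 in astrocytes but 10.6% ± 2.19 in microglia. Hk2, the inducible hexokinase, was 54.5% ± 2.38 and Hk3, a hexokinase of myeloid cells, 34.8% ± 2.64 in microglia. Against homogenate the log2 difference in microglia was 5.599 ± 0.25 for Hk2 and 5.26 ± 0.29 for Hk3. In astrocyte libraries Hk2 and Hk3 stood at 12.9% and 12.8% of their microglia level, and the 10 microglia markers stood there at 11.6% to 20.3% of theirs, with a median of 12.6%.

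Of the phosphofructokinase subunits, Pfkm, the muscle type, led per length in astrocytes (94.2 ± 15.1 CPM per kilobase) and homogenate (147 ± 7.11), and Pfkl, the liver type, in microglia (47.7 ± 4.63). Pfkp, the platelet type, stood at 2.69 ± 1.37 CPM per kilobase in microglia, 22.6 ± 2.16 in astrocytes and 66.6 ± 6.29 in homogenate, and the log2 difference of microglia from homogenate was -4.62 ± 0.22 (edgeR adjusted p = 2.22e-25). Pfkl, at 47.7 CPM per kilobase in microglia and 53.4 in homogenate, did not differ past the threshold between them (edgeR adjusted p = 0.111). Of the PFKFB enzymes, Pfkfb3, the isoform with the strongest bias toward synthesis of the activator, led in astrocytes and microglia, with 53.1% and 78.8% of the family per length, and Pfkfb2 in homogenate, with 49.2%.

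The glycolytic enzymes with a single listed gene were highest in homogenate and lowest in microglia. Gpi1, the isomerase that follows hexokinase, had 117 ± 17.4, 70.9 ± 5.05 and 193 ± 16.8 CPM per kilobase in astrocytes, microglia and homogenate. In the same order Tpi1, which interconverts the triose phosphates, had 89.4 ± 14.4, 53.6 ± 10.6 and 211 ± 33.3, and Gapdh, the dehydrogenase that follows, 399.9 ± 76.7, 280.03 ± 52.9 and 562 ± 62.2. Pgk1, which makes ATP at the next step, had 70.6 ± 14.7, 31.9 ± 2.96 and 103 ± 12.7, and the mutase Pgam1 26.1 ± 4.35, 20.8 ± 3.53 and 57.2 ± 8.43. Pkm, the pyruvate kinase, which forms pyruvate and ATP, had 198 ± 20.3, 168 ± 22.3 and 371 ± 34.2 CPM per kilobase. Astrocytes and microglia did not differ past the threshold for Pgam1 and Pkm (edgeR adjusted p = 0.0856 and 0.0689), and they did with DESeq2, RLE size factors or the 24 control libraries alone.

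The aldolase Aldoc had 537 ± 131 CPM per kilobase in astrocytes, 274 ± 48.6 in homogenate and 13.3 ± 9.47 in microglia, where its relative Aldoa was 92.1% of the pair. Eno2, the neuronal enolase, had 233 ± 15.7 CPM per kilobase in homogenate, 7.01 ± 2.53 in astrocytes and 5.902 ± 3.66 in microglia, and the last 2 did not differ past the threshold (edgeR adjusted p = 0.385). Eno1, the widely expressed enolase, led the pair in astrocytes and microglia, at 16.8 and 6.87 CPM per kilobase, but 85.6% of its transcript has near-identical copies in 3 other genes, so its reads may have been left out as not unique. Other members with copies of at least 95% identity were Gpi1, Tpi1, Gapdh, with copies in 81 genes, Pgk1, Pgam1, Pkm, Ldha and Ldhb. Their levels are uncertain for that reason. Alignments that were not unique had a median share of 23.9% in microglia, 10.5% in astrocytes and 9.33% in homogenate libraries. Their part in the order of these levels between preparations was not tested. Ldhb, the lactate dehydrogenase subunit of oxidative tissues, was the higher of its pair per length in each preparation, with 76.99% in astrocytes, 67.9% in microglia and 70.98% in homogenate.

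Among the lactate transporters, Slc16a1, which encodes MCT1, was highest in astrocytes (46.6 ± 8.88 CPM per kilobase), against 26.6 ± 12.5 in microglia and 10.5 ± 1.24 in homogenate. Its astrocyte level was 175% of its microglia level, beside 116% to 173% for the 10 endothelial markers, which had the same order. Oligodendrocyte markers had this order too, with summed medians of 21841, 4024 and 2191 CPM of assigned counts in control astrocytes, microglia and homogenate. The astrocyte level of these 10 markers was 408% to 560% of their microglia level. The part of either cell type in the level of Slc16a1 was not tested. Slc16a3, which encodes MCT4, was highest in microglia (12.1 ± 2.32), against 1.96 ± 0.2703 in astrocytes and 0.591 ± 0.135 in homogenate. Slc16a7, which encodes the neuronal transporter MCT2, was low per length throughout, at 0.801 to 1.95 CPM per kilobase. It was highest in microglia, followed by homogenate and astrocytes, and each step passed the threshold. The microglia level was 243% of the astrocyte level. Pdk2 was the leading pyruvate dehydrogenase kinase of the 3 members in astrocytes (76.9% per length) and homogenate (63.9%), and Pdk1, a known target of hypoxia-inducible factor, in microglia (49.9%). Pdha1, the subunit that these kinases phosphorylate, was at 42.7, 20.6 and 61.1 CPM per kilobase in astrocytes, microglia and homogenate.

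The glycogen genes among the members, Pygb, Pygm and Gys1, stood highest in astrocytes. Pygb, the brain glycogen phosphorylase, had 127 ± 17.3 CPM per kilobase in control astrocytes, 67.6 ± 6.23 in homogenate and 22.9 ± 3.57 in microglia. Pygm, the muscle phosphorylase, had 43.5 ± 8.88, 16.2 ± 4.93 and 4.77 ± 0.4905 CPM per kilobase in the same order, and Gys1, glycogen synthase, 11.6 ± 1.35, 7.74 ± 0.782 and 3.14 ± 0.906. The log2 difference of astrocytes from homogenate was 1.42 ± 0.16 for Pygm, 0.91 ± 0.098 for Pygb and 0.59 ± 0.16 for Gys1 (edgeR adjusted p = 3.76e-11, 5.53e-12 and 0.00122). Pygb was the higher phosphorylase per length in every preparation. The 22 listed genes of glycogen handling outside the members did not share this order. Their summed medians were 1774 CPM of assigned counts in control homogenate, 1584 in astrocytes and 898 in microglia. Of these genes, 12 were higher and 8 lower in astrocytes than in homogenate, beside 36.2% and 40.8% of all genes.

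The comparison of CIE with control mice asked how the same genes responded to ethanol in each preparation. In astrocytes 2 phosphofructokinase subunits fell and 1 pyruvate dehydrogenase kinase rose among 33 members tested, and over all genes tested there 2.91% rose and 2.22% fell. At an unadjusted p under 0.05, 4 members were higher and 10 lower in astrocytes, beside 11.3% and 9.69% of all genes. In microglia the glucose transporter Slc2a3 rose and no member fell in edgeR, beside 2.31% and 1.15% of all genes; at an unadjusted p under 0.05 there 3 members were higher and 3 lower, beside 9.49% and 7.43% of all genes, and DESeq2, which called 767 genes in all, called 2 of them as lower, Pfkl and Ldhb. In homogenate no member passed in edgeR, where 0.193% of all genes rose and 0.0572% fell; at an unadjusted p under 0.05, 2 members were higher and 0 lower, beside 5.49% and 3.705% of all genes, and DESeq2, which called 204 genes in all, called 1, Pygm. These levels are scaled within a preparation and differ slightly from those that compare preparations.

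**Figure D2:**
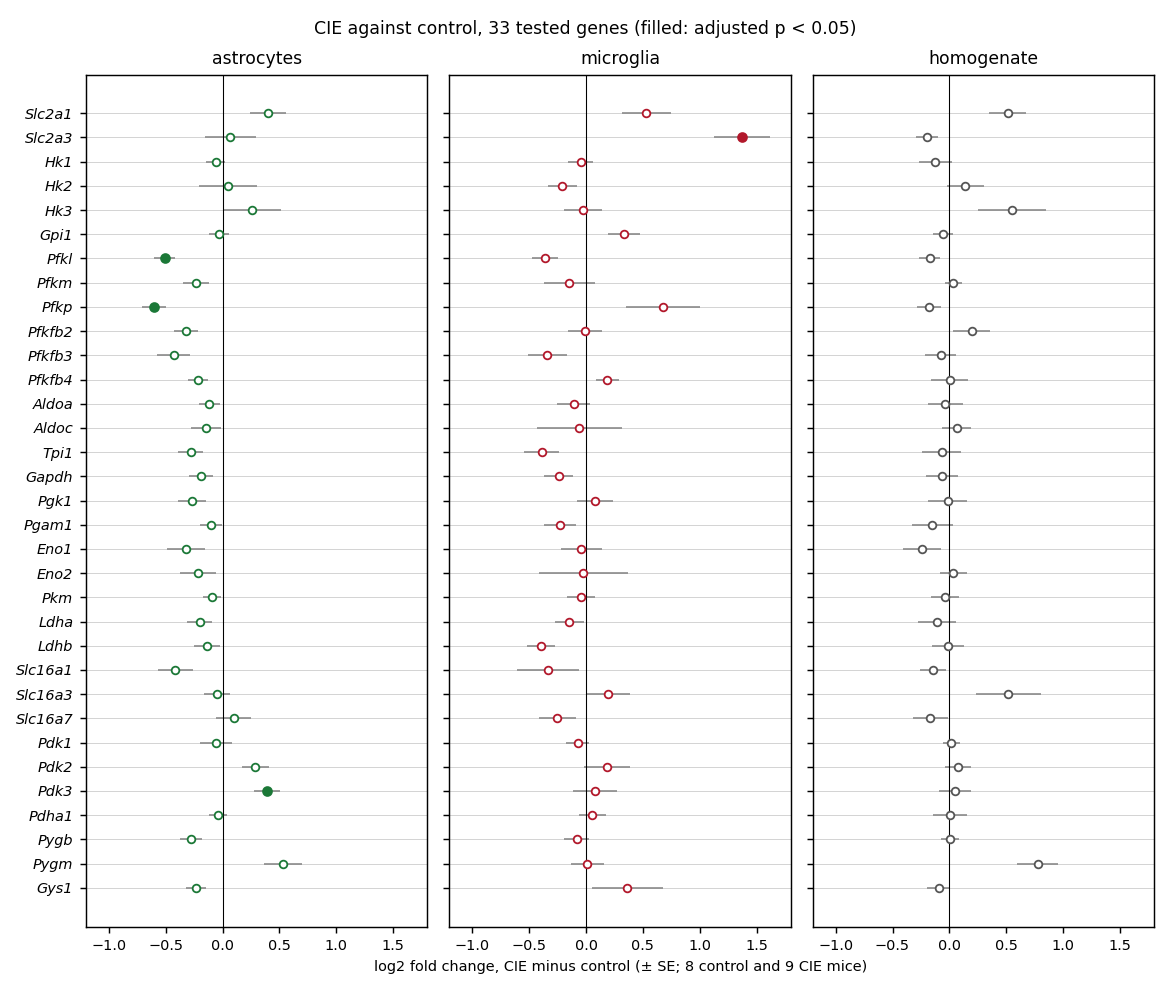
Log2 fold change of CIE against control for the tested members in each preparation, with bars for the SE; filled points passed an adjusted p of 0.05. The filled points are Pfkl, Pfkp and Pdk3 in astrocytes and Slc2a3 in microglia, and 25 of 33 points in astrocytes lie below 0.

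Pfkl and Pfkp, whose products join into the phosphofructokinase tetramer, fell in astrocytes. Pfkl (chromosome 10, 77986947 to 78010083, minus strand, GRCm38) was at 95.8, 112 and 116 CPM in control mice (lowest, median and highest) and at 64.4, 73.1 and 109 CPM in CIE mice. All 9 CIE mice lay under the control median, and 8 of them under every control mouse. Pfkl fell by 0.51 ± 0.09 on the log2 scale (SE, edgeR adjusted p = 0.00483), from 109.5 ± 7.53 to 77.2 ± 13.8 CPM (mean ± SD, n = 8 and 9). Pfkp (chromosome 13, 6579768 to 6648777, minus strand) was at 88.5, 108 and 123 CPM in control mice and at 55.2, 66.2 and 94.4 CPM in CIE mice. Again all 9 CIE mice lay under the control median and 8 under every control mouse. Pfkp fell by 0.602 ± 0.11 on the log2 scale (edgeR adjusted p = 0.00484). The other subunit, Pfkm, had 315 ± 52.4 CPM in control and 268 ± 45.9 CPM in CIE astrocytes, a log2 difference of -0.23 ± 0.11 that did not pass (edgeR adjusted p = 0.245). Pfkp overlaps the gene Pitrm1 and Pfkm the gene Senp1 on the opposite strand. The strand setting of the counting was not given in the sources used here, so reads of such stretches may not have been told apart.

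The falls of Pfkl and Pfkp passed in all 17 fits that left out 1 mouse. Within the mice numbered under 10, 19 to 26 and 35 to 41, the log2 difference was -0.38, -0.64 and -0.43 for Pfkl and -0.55, -0.81 and -0.39 for Pfkp. In astrocyte libraries the summed border macrophage markers had a median of 122 CPM (range 59.5 to 227) in control and 199 CPM (range 89.7 to 344) in CIE mice, and 2 of the 9 tested, Cd163 and Siglec1, rose. With these markers as a covariate, added after seeing the data, Pfkl and Pfkp still passed (edgeR adjusted p = 0.03197 and 0.0333). The sum of the astrocyte markers had a median of 17779 CPM in control and 14866 CPM in CIE astrocytes, with 8 of 10 at a negative log2 difference and 1, Gjb6, called as higher, and its part in the members' values was not tested.

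Pdk3 (chromosome X, 93764607 to 93832201, minus strand), a pyruvate dehydrogenase kinase, was at 18.8, 20.5 and 26.6 CPM (lowest, median and highest) in control astrocytes and at 21.9, 25.2 and 36.3 CPM in CIE astrocytes. Each of the 9 CIE mice was above the control median, and 4 were above every control mouse. Pdk3 rose by 0.39 ± 0.11 on the log2 scale (edgeR adjusted p = 0.0499), a call at the edge of the threshold that passed in 6 of 17 fits without 1 mouse and was lost with the border macrophage covariate (log2 0.31, edgeR adjusted p = 0.2102). Its log2 difference was 0.66 in mice 19 to 26, 0.23 in mice under 10 and 0.09 in mice 35 to 41.

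A further 11 members in the astrocyte libraries had an unadjusted p under 0.05 and did not pass the adjustment. Those with higher means in CIE mice were Slc2a1 (601 ± 166 in control and 790.5 ± 191 CPM in CIE mice), Pdk2 (127 ± 26.5 and 154 ± 26.4 CPM) and Pygm (139 ± 29.5 and 200.4 ± 66.8 CPM). The PFKFB genes had lower means in CIE mice, with Pfkfb2 at 61.8 ± 13.1 and 49.7 ± 3.98 CPM, Pfkfb3 at 154 ± 40.04 and 115 ± 21.9 CPM and Pfkfb4 at 39.8 ± 4.55 and 34.1 ± 4.62 CPM. Other lower means were those of the triose phosphate isomerase Tpi1 (175 ± 28.99 and 144 ± 22.8 CPM), the phosphoglycerate kinase Pgk1 (143 ± 30.9 and 119 ± 19.5 CPM), Slc16a1 (229 ± 42.2 and 172 ± 51.6 CPM), Pygb (553 ± 78.9 and 456 ± 64.1 CPM) and Gys1 (47.5 ± 5.95 and 40.5 ± 5.44 CPM). Their edgeR adjusted p values lay between 0.0668 for Pygm and 0.204 for Pgk1, and DESeq2 called Pygm, Pfkfb2 and Pygb of them. The number of all genes that DESeq2 called in astrocytes is not given here, so these calls have no share beside them. The log2 differences of the remaining 19 tested members lay between -0.32 for Eno1 and 0.26 for Hk3. In all, 25 of 33 members had a negative log2 difference in astrocytes, with a median of -0.13, where the median of all genes was 0.003.

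**Figure D3:**
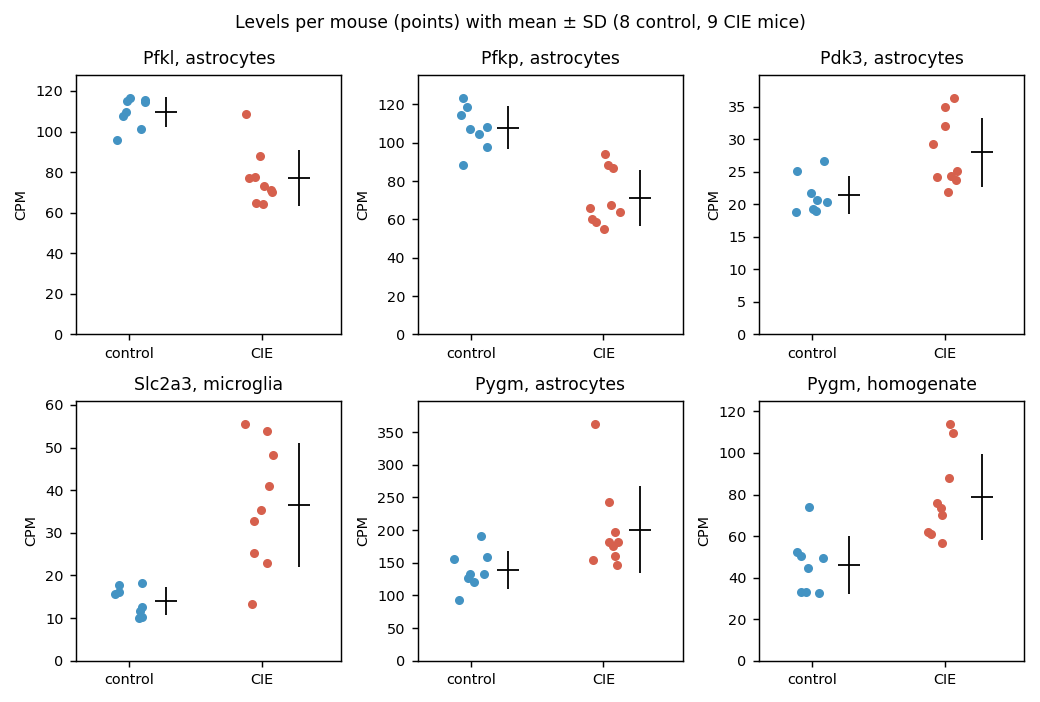
CPM of members with responses to CIE, 1 point per mouse (8 control and 9 CIE), with the mean and SD beside each group. All 9 CIE mice lie below the control median for Pfkl and Pfkp in astrocytes, 8 of 9 lie above it for Slc2a3 in microglia and all 9 for Pygm in astrocytes and homogenate.

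Slc2a3 (chromosome 6, 122727809 to 122801640, minus strand), the high-affinity glucose transporter, was at 10.04, 14.1 and 18.3 CPM (lowest, median and highest) in control microglia and at 13.2, 35.4 and 55.4 CPM in CIE microglia. Its gene overlaps the predicted gene Gm4482 on the same strand. The 8 CIE libraries other than that of mouse 40 lay above every control library. Slc2a3 rose by 1.37 ± 0.25 on the log2 scale (SE, edgeR adjusted p = 0.005195), from 14.02 ± 3.32 to 36.5 ± 14.5 CPM. It passed in all 17 fits without 1 mouse, and its log2 difference within the mice under 10, 19 to 26 and 35 to 41 was 1.13, 1.45 and 1.08.

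Other cell types moved in the same libraries. Of 9 neutrophil markers tested in microglia, 8 rose, and their summed level was 540.2 to 1032 CPM (median 817) in control and 649.8 to 7067 CPM (median 953) in CIE libraries. The CIE library of mouse 41 had the highest sum, 7067 CPM, and 53.9 CPM of Slc2a3, mouse 23 had 1769.6 and 55.4 CPM, and mouse 26 had 2214 and 48.2 CPM. The CIE libraries with sums inside the control range were those of mice 06, 25, 08, 24 and 40. In that order their sums were 697, 953, 649.8, 803 and 773 CPM. They had 35.4, 40.9, 25.4, 23.01 and 13.2 CPM of Slc2a3. All but the library of mouse 40 had more Slc2a3 than every control library. With the neutrophil markers as a covariate the log2 difference of Slc2a3 was 0.85 and no longer passed (edgeR adjusted p = 0.1798). With neuron markers as a covariate, added after seeing the data, it was 1.37 (edgeR adjusted p = 0.005005).

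**Figure D4:**
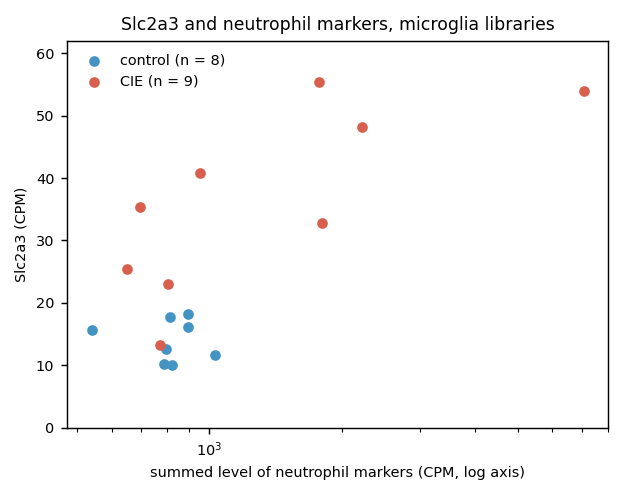
Slc2a3 level (CPM) against the summed level of the neutrophil markers (CPM of assigned counts, log axis) in each microglia library, for 8 control and 9 CIE mice. The highest sum, 7067 CPM, belongs to a CIE library with 53.9 CPM of Slc2a3, and the 5 CIE libraries with sums inside the control range spread from 13.2 to 40.9 CPM.

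A further 5 members had an unadjusted p under 0.05 in microglia. Slc2a1 was at 273 ± 92.6 CPM in control and 394 ± 123 CPM in CIE mice and Gpi1, the isomerase that follows hexokinase, at 185 ± 13.97 and 233 ± 66.9 CPM. Means were lower in CIE mice for Pfkl (161 ± 19.4 and 126 ± 24.2 CPM), Tpi1 (85.5 ± 16.9 and 64.9 ± 17.4 CPM) and Ldhb (226 ± 32.99 and 173 ± 35.9 CPM). In that order their edgeR adjusted p values were 0.192, 0.206, 0.0803, 0.172 and 0.0814. The other 27 tested members lay between -0.34 for Pfkfb3 and 0.67 for Pfkp on the log2 scale. The median log2 difference of the members in microglia was -0.05, beside -0.005 over all genes. The microglia markers summed to a median of 25609 CPM in control and 21985 CPM in CIE microglia and all 10 had a negative log2 difference, of which Fcrls and Gpr34 were called, while the 10 oligodendrocyte markers all had a positive one. The part of these shifts in the members' values was not tested.

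In homogenate Pygm (chromosome 19, 6384399 to 6398459, plus strand) was at 32.4, 46.9 and 73.9 CPM (lowest, median and highest) in control mice and at 56.6, 73.3 and 114 CPM in CIE mice. All 9 CIE mice were above the control median, and 7 of 8 control mice were below every CIE mouse. The log2 difference was 0.77 ± 0.18, and it did not pass the adjustment over all genes (edgeR adjusted p = 0.0774), although it passed in DESeq2 (adjusted p = 0.00582) and in edgeR without control mouse 37 (adjusted p = 0.0228). Slc2a1 was at 125 ± 26.5 CPM in control and 179 ± 45.8 CPM in CIE homogenate, a log2 difference of 0.51 ± 0.16 (edgeR adjusted p = 0.236). In astrocytes its log2 difference was 0.396 ± 0.16 and in microglia 0.53 ± 0.22 (edgeR adjusted p = 0.153 and 0.192), so its mean was higher in CIE mice in each preparation without passing in any. With the 3 ranges of mouse numbers in the model it passed in astrocytes and microglia (edgeR adjusted p = 0.00589 and 0.0213). All preparations share their mice, so these are not independent repeats. The summed endothelial markers had medians of 1908 and 1900 CPM in control and CIE astrocytes, 931 and 1180 in microglia and 456 and 527 in homogenate, and of the 10 markers 1 was higher at an unadjusted p under 0.05 in each preparation and none passed the adjustment in edgeR. The other 31 tested members lay between -0.24 for Eno1 and 0.55 for Hk3 on the log2 scale. The median log2 difference of the 33 members in homogenate was -0.01, beside 0.006 over all genes.

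Isoform use within a family was compared as the log2 ratio of counts within each library, which does not depend on the scaling between libraries. In all, 14 ratios were tested in 3 preparations with two-sided exact permutation tests over the mice, adjusted over the 42 tests, and 9 of them passed. The ratio of Pygm to Pygb had the smallest p. In astrocytes its log2 was -2.25, -1.998 and -1.74 in control mice (lowest, median and highest) and -1.703, -1.28 and -0.47 in CIE mice, so the groups did not overlap. It was higher by 0.78 in CIE mice (exact permutation p = 8.23e-05, adjusted p = 0.00346, n = 8 and 9). In homogenate it was -3.06, -2.48 and -1.99 in control and -2.33, -1.77 and -1.42 in CIE mice, higher by 0.79 (exact permutation p = 0.000411, adjusted p = 0.00864). Both passed in all 17 repeats without 1 mouse. In microglia, where Pygm was at 12.4 ± 1.25 CPM in control mice, the ratio differed by 0.11 (exact permutation p = 0.471, adjusted p = 0.703). In astrocytes the mean of Pygm was higher and that of Pygb lower in CIE mice, as given above, and in homogenate Pygb was at 262 ± 23.8 CPM in control and 262 ± 31.3 CPM in CIE mice. Within the mice under 10, 19 to 26 and 35 to 41, the log2 difference of Pygm in astrocytes was 0.06, 0.85 and 0.39. In homogenate it was 0.43, 0.91 and 0.94.

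**Figure D5:**
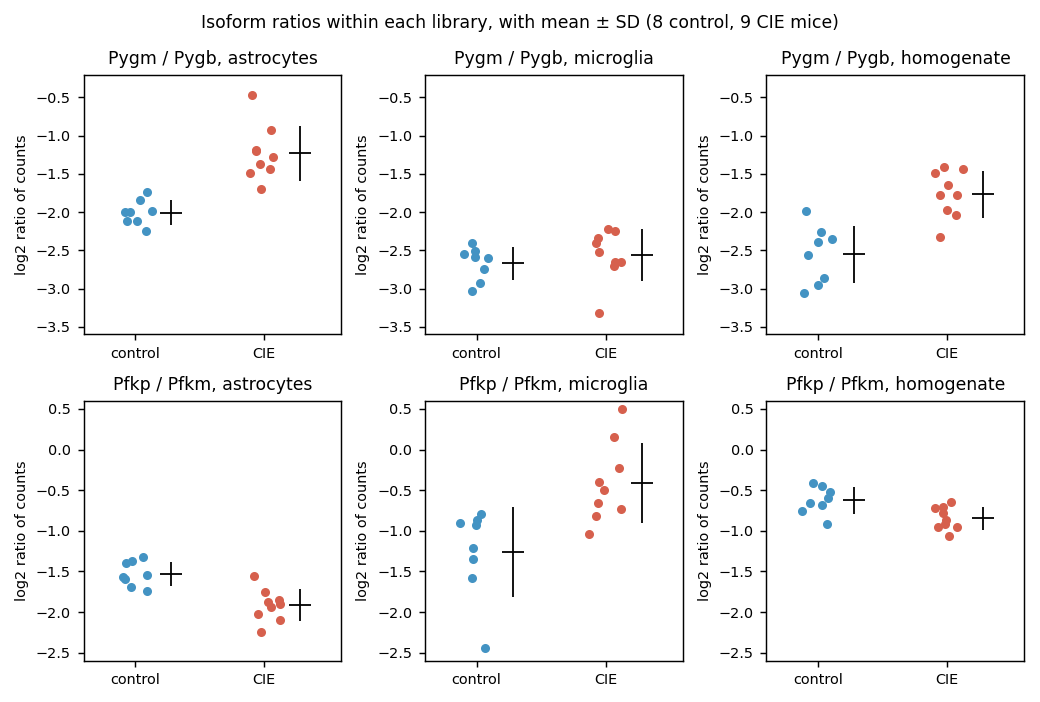
Log2 ratio of counts of Pygm to Pygb and of Pfkp to Pfkm in each library of each preparation, 1 point per mouse (8 control and 9 CIE), with mean and SD. Pygm to Pygb is higher in CIE mice in astrocytes and homogenate, and Pfkp to Pfkm is lower in CIE astrocytes and homogenate and higher in CIE microglia.

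Phosphofructokinase subunits also shifted against each other. The log2 ratio of Pfkp to Pfkm was -1.53 ± 0.15 in control and -1.92 ± 0.198 in CIE astrocytes (SD), a difference of -0.38 (exact permutation p = 0.0007404, adjusted p = 0.0104). In homogenate it was -0.62 ± 0.16 and -0.85 ± 0.14, a difference of -0.22 (exact permutation p = 0.00995, adjusted p = 0.0465). In microglia it went the other way, from -1.26 ± 0.55 to -0.41 ± 0.49, a difference of 0.85 (exact permutation p = 0.00156, adjusted p = 0.0164), at a Pfkp level of 10.4 ± 5.17 CPM in control libraries. The CIE microglia library of mouse 23 had 48.7 CPM of Pfkp and also 1292 CPM of neuron markers and 1455 CPM of astrocyte markers, the highest sums of the CIE microglia libraries. Without mouse 23 the difference was 0.77 and still passed (exact permutation, adjusted p = 0.0326). The ratio of Pfkl to Pfkm differed by -0.29 in CIE astrocytes and -0.21 in CIE homogenate (exact permutation, adjusted p = 0.0434 for each). Without 1 mouse in turn, these and the homogenate ratio of Pfkp to Pfkm each passed in 4 of 17 repeats, while the astrocyte and microglia ratios of Pfkp to Pfkm passed in all 17.

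The remaining ratios that passed were both in homogenate. The log2 ratio of Slc2a3 to Slc2a1 went from 0.56 ± 0.42 in control to -0.12 ± 0.39 in CIE mice, a difference of -0.69 (exact permutation p = 0.00444, adjusted p = 0.0373), and passed in 9 of 17 repeats without 1 mouse. In microglia, where Slc2a3 rose, this ratio was higher by 0.73 but did not pass (exact permutation p = 0.0668, adjusted p = 0.233). Eno2 to Eno1 was higher by 0.31 in CIE homogenate (exact permutation, adjusted p = 0.0434; 5 of 17 repeats), with Eno1 subject to the near-identical copies named above. The ratios among the hexokinases, Aldoc to Aldoa, Ldhb to Ldha, the monocarboxylate transporters, the PDK kinases and Pfkfb3 to Pfkfb2 did not pass in any preparation, and their adjusted p values from the exact permutation tests lay between 0.0824 and 0.966.

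Whether a member responded differently in 2 preparations was tested as a difference of the CIE responses in the joint fit. Slc2a3 had a larger response in microglia than in homogenate, by 1.55 ± 0.28 on the log2 scale (SE, edgeR adjusted p = 0.00219), the single member called there, where 0.563% of all genes were higher and 0.264% lower in that difference. Its own log2 change was 1.37 ± 0.25 in microglia, 0.07 ± 0.22 in astrocytes (10.3 ± 4.09 and 10.6 ± 3.59 CPM) and -0.19 ± 0.097 in homogenate (183 ± 24.7 and 160.3 ± 21.4 CPM). Against astrocytes the response in microglia was larger by 1.28 ± 0.31 for Slc2a3 (edgeR adjusted p = 0.0394) and by 1.24 ± 0.29 for Pfkp (edgeR adjusted p = 0.0288), and no member was lower in edgeR or DESeq2, beside 0.41% and 0.118% of all genes. At an unadjusted p under 0.05 in that difference 5 members were higher and 1 lower, beside 5.89% and 5.01% of all genes. These calls passed in 6 and 8 of 17 fits without 1 mouse, a check added after seeing the data, and without mouse 23 both were lost (edgeR adjusted p = 0.0701 for Slc2a3 and 0.0584 for Pfkp). The larger response of Slc2a3 against homogenate passed in all 17. Pfkp itself was at 10.4 ± 5.17 CPM in control and 17.8 ± 12.6 CPM in CIE microglia, a log2 difference of 0.67 ± 0.33 (edgeR adjusted p = 0.301), 0.49 without mouse 23 and 0.096 with the neutrophil markers as a covariate (edgeR adjusted p = 0.962). Between astrocytes and homogenate no member differed in edgeR, where 0.00695% of all genes were higher and 0% lower; at an unadjusted p under 0.05, 0 members were higher and 3 lower, beside 2.34% and 2.64% of all genes, and DESeq2 called 0.

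Of the other genes around the pathway, few passed. In astrocytes 1 of 21 tested genes of glycogen handling outside the members rose, Epm2a, the glycogen phosphatase laforin (5.79 ± 0.698 to 8.21 ± 1.31 CPM, edgeR adjusted p = 0.0207). Of 8 pentose phosphate genes, 2 rose there, G6pdx, the entry enzyme of the pathway (71.8 ± 7.097 to 90.2 ± 15.6 CPM), and H6pd, its counterpart of the endoplasmic reticulum (25.8 ± 5.53 to 35.7 ± 6.87 CPM). Gpd1, the glycerol 3-phosphate dehydrogenase that draws on a glycolytic intermediate, rose in astrocytes (92.9 ± 18.2 to 152 ± 45.9 CPM, edgeR adjusted p = 0.0143) and in microglia (28.5 ± 8.15 to 50.6 ± 17.5 CPM, edgeR adjusted p = 0.0255), in each case 1 of 10 tested genes of its list. Slc2a12, a glucose transporter, rose in astrocytes, from 5.101 ± 1.02 to 10.1 ± 3.68 CPM (edgeR adjusted p = 0.0104), 1 of 11 tested. In microglia 1 of 18 glycogen genes and 1 of 8 transport genes rose, Pygl, the liver phosphorylase (10.4 ± 2.82 to 29.9 ± 29.3 CPM), and Emb, a partner protein of monocarboxylate transporters (4.04 ± 0.942 to 14.1 ± 14.7 CPM), in the libraries with the neutrophil markers given above. No gene of these lists fell in any preparation in edgeR, and none passed in homogenate. None of 10 genes of pyruvate entry or of the 16 regulators of glycolysis listed passed in any preparation, and at an unadjusted p under 0.05 in astrocytes 2 regulators were higher and 1 lower, beside the 11.3% and 9.69% of all genes given above.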

How the data were processed

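RNA was sequenced from 51 libraries, 17 mice in each of 3 preparations. The authors deposited raw counts of reads per gene (poly(A) RNA, NEBNext Ultra Directional kit, mm10; cutadapt 1.8, STAR 2.5.0a, Picard 1.141 and HTSeq 0.6.1p1 in the study's methods or the submitters' processing notes); the strand setting and annotation release were not given in the sources used here. Each file gave 1 sample, grouped by its labels.

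After a low-count filter and TMM scaling, the quasi-likelihood test of edgeR (version 4.0.16, R 4.3.3) compared the counts, CIE against control within each preparation, with 12878 genes tested in astrocytes, 10761 in microglia and 13982 in homogenate. A joint fit of 6 groups over 14379 genes gave the differences between preparations and between responses. P-values were adjusted by Benjamini-Hochberg over all genes, with a threshold of 0.05. DESeq2 1.42.0 was an alternative. Isoform ratios used log2 of counts plus 0.5 and exact permutation tests over 24310 arrangements. Levels per length used exon lengths of GENCODE vM21, and near-identical copies were sought with at least 95% identity over 100 bases. Scripts were tested on simulated data. Total counts per library were highest in homogenate and lowest in microglia.

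Same-numbered libraries come from the same mouse. Their deviations from the group means correlated with medians of 0.112 (astrocytes and homogenate), 0.0394 (microglia and homogenate) and 0.149 (astrocytes and microglia), and a fit with the mouse as a block was an alternative. Other alternatives were size factors, no filter, marker covariates, ranges of mouse numbers and leaving out mice. All 34 members are accounted for, with every called member, those with an unadjusted p under 0.05 and the leading isoform of each family named, and other lists named by their called genes. The members and lists were chosen with earlier results of these data known.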

Additional observations from a re-analysis of the deposited data

Results flagged for a closer look

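Of 198 groups of a member's levels within 1 preparation and treatment, 16 (8.08%) held a library far from the others. Chance alone gives about 1 in 20 if the values are normally distributed, which was not checked for these CPM. Groups that share a library are not independent, so the share is not read as an excess over chance. In CIE microglia the library of mouse 23 stood high for Aldoc at 109 CPM, Eno2 at 57.1 CPM and Pfkp at 48.7 CPM. That library also had the highest sums of neuron and astrocyte markers, 1292 and 1455 CPM of assigned counts, and their part in these values was not tested. Other high libraries of CIE microglia were mouse 08 for Pfkl at 182 CPM, mouse 41 for Pgk1 at 95.4 CPM and mouse 39 for Slc16a1 at 171 CPM. In control microglia mouse 19 stood high for Gapdh at 549.9 CPM and Ldhb at 296 CPM. In control astrocytes mouse 03 stood high for Eno1 at 67.2 CPM and mouse 36 for Eno2 at 39.4 CPM, and in CIE astrocytes mouse 26 for Pygm at 362 CPM. In homogenate the high libraries were control mouse 03 for Pfkfb4 at 29.4 CPM, control mouse 35 for Pfkl at 242 CPM, CIE mouse 41 for Pfkl at 238 CPM and CIE mouse 26 for Slc16a3 at 8.89 CPM, and CIE mouse 40 stood low for Pdk1 at 63.7 CPM.

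The response to CIE differed between preparations by the test of the difference itself for 2 members. The log2 response of Slc2a3 in microglia exceeded that in homogenate by 1.55 and that in astrocytes by 1.28, and the response of Pfkp in microglia exceeded that in astrocytes by 1.24. Without mouse 23 the differences from astrocytes were 1.25 for Slc2a3 and 1.04 for Pfkp, and neither passed.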

How the results depend on the processing

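Of 97 counts of called members under other settings, 79 stayed within 1.5 times the reported count and 18 moved; of 228 values of single genes and ratios, 190 kept direction and side of the threshold, 28 came to pass it, 5 no longer did and 5 changed sign. The causes were not tested. The falls of Pfkl and Pfkp in astrocytes passed under every setting run. Astrocyte members higher numbered 2 with DESeq2, 0 with RLE size factors, 0 with no filter, 2 with the ranges of mouse numbers, 4 without the 4 mice under 10 and 3 with microglia markers as a covariate, and those lower numbered 4, 5 and 4 with DESeq2, the ranges and without the 4 mice. Microglia members higher numbered 2 with the ranges and 0 with neutrophil markers as a covariate, and those lower 2 with DESeq2, 3 with the ranges, 2 without the 4 mice and 1 with border macrophage markers, a covariate added after seeing the data. Homogenate members higher numbered 1 with DESeq2 and 1 with the ranges, and without a filter 1 member responded more in microglia than in astrocytes. The numbers of all genes called under these settings are not given here, apart from those for DESeq2 in microglia and homogenate. These counts are therefore not a result about the members alone.

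Leaving out each mouse in turn gave 0 to 2 astrocyte members higher and 2 to 4 lower, 0 to 1 microglia members lower, 0 to 1 homogenate members higher and 0 to 2 members with a larger response in microglia than in astrocytes. Between 2 and 3 astrocyte ratios, 1 and 2 microglia ratios and 1 and 5 homogenate ratios passed. Sign changed for Slc2a3 in astrocytes (-0.088 with border macrophage markers, -0.066 to 0.23 without 1 mouse), Pygm in microglia (-0.0062 with DESeq2, -0.027 without the 4 mice, -0.032 to 0.092 without 1 mouse), Pdk3 in microglia (-0.16) and Gpi1 in microglia (-0.079) with neutrophil markers, and Pdk3 in homogenate (-0.018 to 0.11 without 1 mouse), none of them called.

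With the mouse as a replicate block, members higher and lower were 11 and 19 for astrocytes against homogenate, 9 and 22 for microglia against homogenate and 19 and 10 for astrocytes against microglia; the calls gained were Ldhb and Pgam1 and none was lost. The block changed no call on responses, with adjusted p values of 0.0154 for Slc2a3 and 0.0374 for Pfkp between microglia and astrocytes and 0.0013 for Slc2a3 between microglia and homogenate. DESeq2 and RLE size factors each gained 4 calls between preparations. Microglia libraries were the shallowest (571878 to 6026453 counts).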

Other observations

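The spread between mice was compared as the coefficient of variation of each gene over the control and over the CIE libraries. It was larger in CIE mice for 30 of 33 members in homogenate, beside 78.2% of 14298 genes, for 26 of 33 in microglia, beside 56.5% of 13259 genes, and for 15 of 33 in astrocytes, beside 38.7% of 13568 genes, on CPM of assigned counts. With the TMM-scaled CPM of the comparisons above the members numbered 30, 26 and 14. These are counts without a test. In homogenate the summed neutrophil markers reached 801 CPM of assigned counts in CIE mouse 26, where the median was 38.1 CPM in CIE and 31.7 CPM in control homogenate, and the same library held 8.89 CPM of Slc16a3.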
